A study of Mus musculus with 34 samples.

Results

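Choroid plexus transcripts were followed across the cortex of individual mice: Ttr, Otx2, Kl, Folr1, Sostdc1, Clic6, Aqp1, Slc4a5, F5 and Enpp2, taken as every probe set to which the platform annotation gives one of these symbols. Of these 10 genes, 9 were measured, on 16 of the 45037 probe sets of the array. Enpp2 was not matched to a probe set and is not analysed here. All mice were 15 wk old, of the strain labelled CBA X C57Bl/6 and of both sexes, and each of the 34 arrays was taken as the cortex RNA of 1 mouse. WT mice (n = 8) carried neither mutation, Hdac4HET mice (n = 8) were heterozygous for a null allele of Hdac4, R6/2 mice (n = 9) carried a transgene for a mutant N-terminal exon 1 fragment of HTT, and Dble::R6/2 mice (n = 9) carried both. The Hdac4 allele was a knock-out brought in by the mothers of the cross and not limited to a cell type, its colony had been bred to the same background, and no mouse was without Hdac4. Values are deposited log2 expression levels, on which a difference of 1 is a doubling.

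The choroid plexus is a vascular fold covered by a secretory epithelium that hangs into the ventricles of the brain, makes most of the cerebrospinal fluid, and forms the barrier between blood and that fluid. Its epithelium is known for very strong transcription of Ttr, whose product transthyretin carries thyroid hormone and retinol-binding protein, and for polarised channels and transporters. It lies beside the cortex and is no part of it, and a dissected cortex can hold more or less of it. In bulk tissue, fewer cells of a type and less RNA per cell cannot be told apart, and this holds for every value below.

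The median log2 level of an array was 5.44 to 5.52, and the lowest correlation between mice of the same genotype was 0.973. The targeted gene Hdac4 read 8.06 ± 0.13 in WT, 7.58 ± 0.10 in Hdac4HET, 7.91 ± 0.19 in R6/2 and 7.58 ± 0.14 in Dble::R6/2 on its brightest probe set (SD), and cortical projection neuron markers such as Slc17a7 (10.2 ± 0.11 in WT) and Camk2a (13.3 ± 0.09 in WT) were plainly present. The sex label went against Xist in 15 of 34 arrays, so that the labels of single arrays are in doubt there. On the next brightest of 3 Hdac4 probe sets, 1454693_at, Hdac4HET arrays, with a lowest value of 7.16 and a median of 7.35, all lay below the WT range of 7.54 to 8.13, and Dble::R6/2 arrays lay between 7.01 and 7.56 against 7.67 to 7.99 in R6/2, so that neither pair overlapped. It was the one probe set of the 3 on which this held for both pairs, and it was picked out after its values were seen. Prolactin transcript was high in 4 arrays, WT replicates 2, 6 and 7 and Hdac4HET replicate 1, and R6/2 replicate 2 held epidermal transcripts. For the choroid plexus genes a further 3 arrays, Dble::R6/2 replicates 4, 8 and 9, stood apart from the other 31, and the counts, spreads and correlations that rest on them are also given without them. All 3 were labelled male, as were 4 of the 9 Dble::R6/2 mice, under the sex labels that are in doubt. Each replicate was taken as a separate mouse, which the sample names do not state, and the number of arrays limits the precision.

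Ttr was measured by 4 probe sets, 1454608_x_at, 1459737_s_at, 1455913_x_at and 1451580_a_at in order of their mean level. The endings _x_at and _s_at mark probe sets whose probes may also match other transcripts. On the brightest, WT arrays lay between 8.41 and 11.2 with a median of 9.20, Hdac4HET arrays between 8.94 and 12.2 with a median of 10.1, and R6/2 arrays between 9.75 and 13.0 with a median of 10.7. Dble::R6/2 arrays read 10.4, 12.5, 8.52, 13.8, 12.5, 8.63, 10.7, 13.9 and 13.8 in replicates 1 to 9, with a median of 12.5. The genotype means were ordered WT, Hdac4HET, R6/2 and Dble::R6/2, from the lowest to the highest, at 9.57 ± 0.96, 10.2 ± 1.16, 10.7 ± 0.95 and 11.6 ± 2.15 (SD), and each step between neighbours was smaller than the SD of either. All 4 groups overlapped, and the genotype with the highest Ttr array also held arrays down at the low end of WT. The highest and lowest Dble::R6/2 mice were 5.41 log2 units apart, a 42.6-fold range, against 6.88-fold within WT, 9.55-fold within Hdac4HET and 9.43-fold within R6/2. Above the highest WT array lay 5 of 9 Dble::R6/2, 2 of 8 Hdac4HET and 1 of 9 R6/2 arrays. The 4 probe sets moved together from mouse to mouse, with correlations of their deviations from the genotype means between 0.980 and 0.999 over 34 arrays and between 0.974 and 0.998 without the 3 high ones, across probe sets that share each mouse's RNA.

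**Figure D1:**
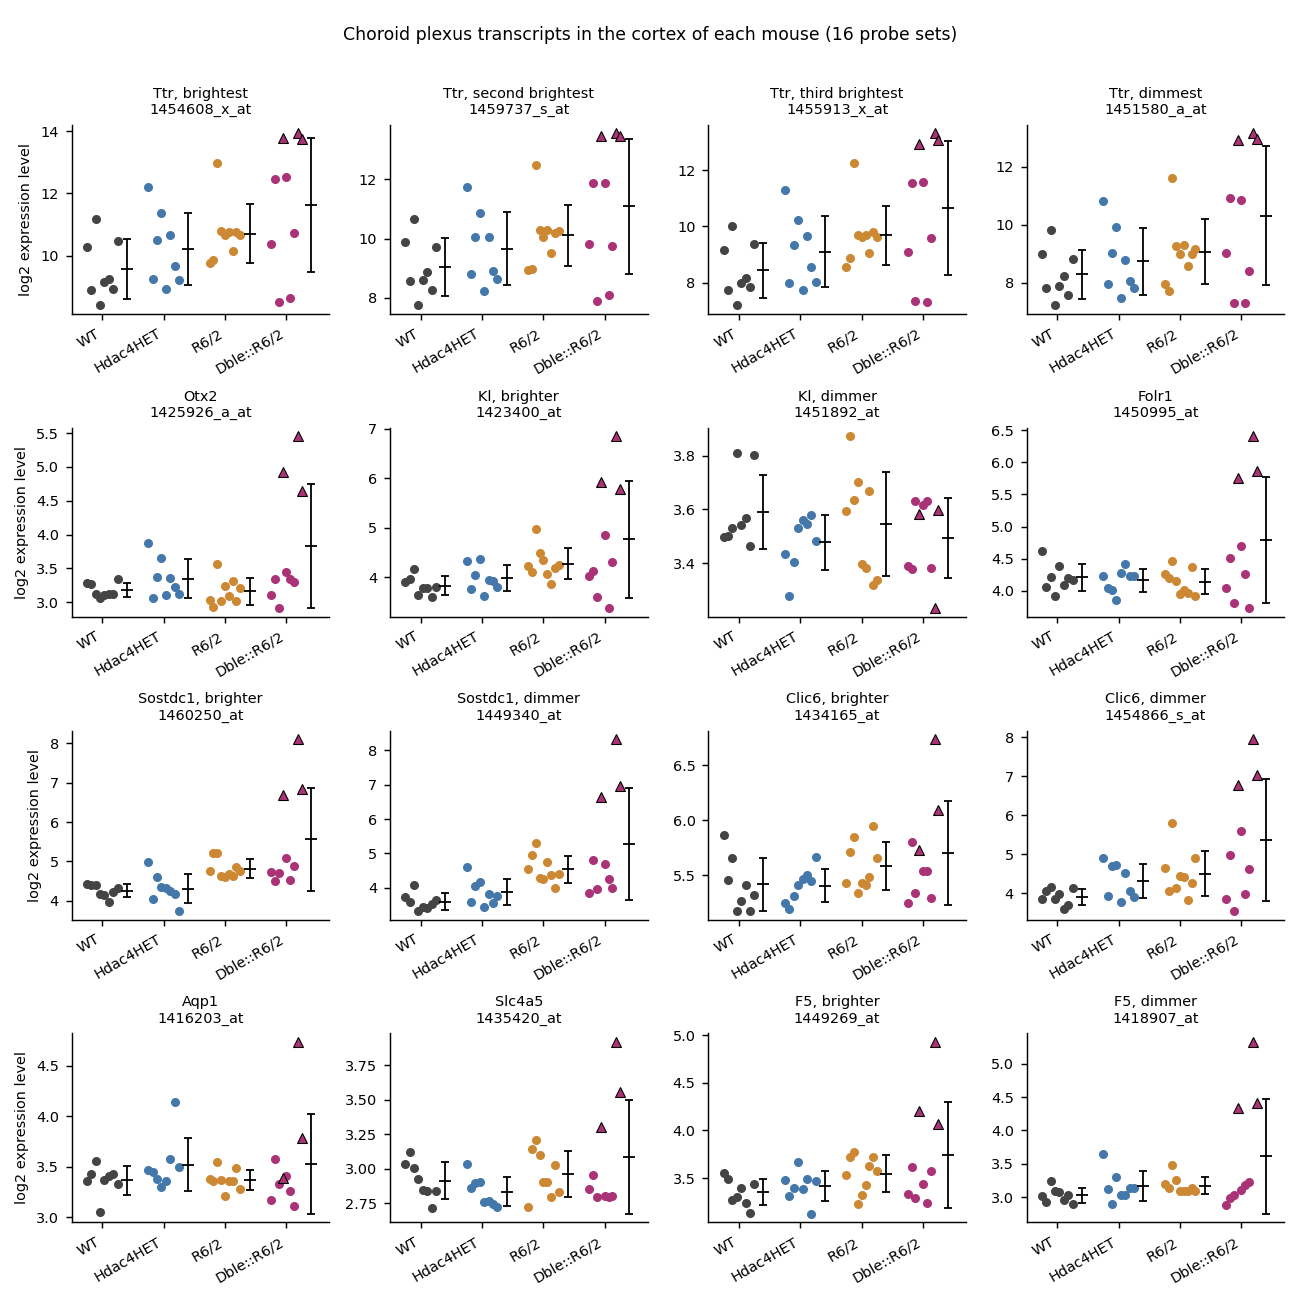
Log2 expression level of the 16 probe sets in each of 34 mice by genotype, with the mean and SD of each genotype as a bar beside the points and a separate axis for each probe set. Triangles are Dble::R6/2 replicates 4, 8 and 9, which lie above all 31 other arrays on 13 of the 16 probe sets.

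Otx2, a homeodomain transcription factor of the choroid plexus epithelium, was measured on 1425926_a_at. It lay between 3.07 and 3.34 in WT, between 3.07 and 3.87 in Hdac4HET and between 2.93 and 3.57 in R6/2. The Dble::R6/2 replicates 4, 8 and 9 read 4.93, 5.45 and 4.64, and the other 6 mice of that genotype lay between 2.92 and 3.45. Those 3 mice thus stood above every other mouse, while the other 6 overlapped with all remaining genotypes. RefSeq start-site windows, cut to the 250 bases upstream of the start in GRCm38.p6, were found for 5 of the 9 genes, Otx2, Kl, Aqp1, Slc4a5 and F5, in 8 windows. TAATCC, the core bound by OTX-type homeodomains, was searched on both strands. It was found in 1 of the 8 windows, against 2054 of 32851 windows over all genes (6.25%). The Otx2 window with the match is shown first, because Otx2 is itself such a factor, with the matching bases in capitals. They read as the reverse complement of the motif on the gene's strand. The window lies on the minus strand at chr14:48665110-48665359, and the match begins 211 bases before the start. The Kl window, at chr5:150952357-150952606 on the plus strand, is shown beside it because Kl followed Ttr most closely from mouse to mouse, and it held no match.
Otx2: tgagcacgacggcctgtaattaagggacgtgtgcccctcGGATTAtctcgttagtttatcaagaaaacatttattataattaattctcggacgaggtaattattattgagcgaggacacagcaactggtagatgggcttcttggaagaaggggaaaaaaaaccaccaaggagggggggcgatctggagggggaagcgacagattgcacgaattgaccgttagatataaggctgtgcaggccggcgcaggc
Kl: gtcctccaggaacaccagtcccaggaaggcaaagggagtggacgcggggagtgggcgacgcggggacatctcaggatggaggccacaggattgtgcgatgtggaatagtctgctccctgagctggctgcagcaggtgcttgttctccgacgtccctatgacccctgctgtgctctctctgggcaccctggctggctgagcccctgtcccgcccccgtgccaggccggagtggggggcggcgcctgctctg
A match describes these letters and is not evidence of binding.

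Kl encodes klotho, an anti-ageing membrane protein that serves as a co-receptor for FGF23 and is strongly made in kidney and choroid plexus. On its brighter probe set, 1423400_at, WT lay between 3.59 and 4.17, Hdac4HET between 3.62 and 4.37 and R6/2 between 3.87 and 4.97. Dble::R6/2 replicates 4, 8 and 9 read 5.93, 6.85 and 5.78, and the other 6 lay between 3.37 and 4.85. The lowest of all 34 values was that of Dble::R6/2 replicate 6, which also had little Ttr (8.63). The dimmer Kl probe set, 1451892_at, showed none of this. It stayed between 3.23 and 3.87 in all 34 arrays, read 3.58, 3.23 and 3.60 in the 3 high mice, and correlated with the brighter one at -0.16 over 34 arrays. What it measures was not tested.

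Folr1 encodes the folate receptor alpha, which carries folate across the choroid plexus into the cerebrospinal fluid. On 1450995_at it lay between 3.92 and 4.62 in WT, between 3.86 and 4.41 in Hdac4HET and between 3.91 and 4.46 in R6/2. Dble::R6/2 replicates 4, 8 and 9 read 5.76, 6.41 and 5.86, and the other 6 lay between 3.73 and 4.69. Outside the 3 high mice all genotypes overlapped.

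Sostdc1, a secreted antagonist of BMP and WNT signals, was measured on 1460250_at and 1449340_at. On the brighter, WT lay between 3.97 and 4.42, Hdac4HET between 3.74 and 5.0 and R6/2 between 4.61 and 5.22. Every R6/2 mouse was above every WT mouse. Dble::R6/2 replicates 4, 8 and 9 read 6.69, 8.11 and 6.85, and the other 6 lay between 4.51 and 5.09. On the dimmer, WT lay between 3.33 and 4.09, Hdac4HET between 3.45 and 4.59, R6/2 between 4.01 and 5.31, and Dble::R6/2 between 3.84 and 8.33. Both probe sets put the same 3 mice on top, at 6.63, 8.33 and 6.97 on the dimmer.

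Clic6 encodes a chloride intracellular channel protein. Its dimmer probe set, 1454866_s_at, lay between 3.61 and 4.18 in WT, between 3.79 and 4.92 in Hdac4HET and between 3.84 and 5.80 in R6/2. Dble::R6/2 replicates 4, 8 and 9 read 6.78, 7.96 and 7.04, and the other 6 read 3.55 to 5.60. Its brighter probe set, 1434165_at, moved less. It read 5.73, 6.74 and 6.09 in the 3 high mice, lay between 5.18 and 5.95 elsewhere, and correlated with the dimmer one at 0.67 over 34 arrays and 0.25 without those 3.

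The water channel Aqp1, the sodium bicarbonate cotransporter Slc4a5 and the coagulation factor F5 were at the low end of the array's scale. Aqp1 (1416203_at) lay between 3.05 and 4.15 in the 31 other arrays and read 3.39, 4.74 and 3.78 in replicates 4, 8 and 9, so that replicate 8 alone stood above the rest. Slc4a5 (1435420_at) lay between 2.71 and 3.21 elsewhere and read 3.30, 3.92 and 3.56 in those 3. F5 read 4.21, 4.93 and 4.07 on its brighter probe set (1449269_at) and 4.34, 5.33 and 4.41 on its dimmer one (1418907_at), against at most 3.77 and 3.64 in the other 31 arrays. Its probe sets correlated at 0.84 over 34 arrays and 0.13 without the 3 high ones. Of the 16 probe sets, 5 passed a filter on low values, a mean over all arrays above the median of such means: the 4 of Ttr and the brighter of Clic6. No detection calls were used, and changes at the low end can be understated on this scale.

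Dble::R6/2 replicate 8 was the highest of all 34 arrays on 15 of the 16 probe sets. Replicate 9 lay above all 31 other arrays on 14 and replicate 4 on 13. Counted by gene on the brightest probe set, all 3 mice lay above the other 31 for 7 of the 9 members (77.8%). The exceptions were Aqp1 and Clic6. Over all 18193 genes this held for 22 (0.121%). These 3 mice were singled out for their choroid plexus values, so the count describes them and tests nothing. Within the other genotypes, R6/2 replicate 3 was the highest of its genotype on 13 of 16 probe sets, Hdac4HET replicate 1 on 10 and WT replicate 3 on 9. At the other end, WT replicate 4 was the lowest on 9 and Hdac4HET replicate 5 on 7. Each genotype therefore held a mouse that was the highest on most of the 16 probe sets, of which 4 measure Ttr and moved together. By gene, on the brightest probe sets, this did not hold in WT or Hdac4HET. There WT replicate 3 led for Ttr, Kl and Aqp1, and WT replicate 1 for Folr1, Clic6, Sostdc1 and F5. Hdac4HET replicate 1 led for Ttr, Otx2, Sostdc1 and Slc4a5 only.

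The spread between mice was largest in Dble::R6/2. Its SD was the highest of the 4 genotypes on 15 of 16 probe sets, the exception being the dimmer Kl probe set, on which R6/2 led at 0.19. The median SD over the 16 probe sets was 0.195 in WT, 0.275 in Hdac4HET, 0.227 in R6/2 and 1.08 in Dble::R6/2, against 0.154, 0.160, 0.178 and 0.171 over all probe sets. For the brightest Ttr probe set the SD was 0.96 in WT, 1.16 in Hdac4HET, 0.95 in R6/2 and 2.15 in Dble::R6/2. It was therefore far above the median of all probe sets in each genotype. Pooled over genotypes, the SD of the 4 Ttr probe sets was 1.41 to 1.55, above that of 99.9% of all probe sets.

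Without Dble::R6/2 replicates 4, 8 and 9 the median pooled SD of the 16 probe sets went from 0.593 to 0.253, against 0.174 over all probe sets. That of the brightest Ttr probe set went from 1.41 to 1.19, still above 99.9% of all. The Dble::R6/2 SD went from 0.919 to 0.195 for Otx2, from 1.31 to 0.222 for the brighter Sostdc1 probe set and from 0.415 to 0.0633 for Slc4a5. For the brightest Ttr probe set it went from 2.15 to 1.75. For the brighter Kl, Folr1 and the dimmer Clic6 probe sets it went to 0.525, 0.383 and 0.777, still the highest SD of the 4 genotypes. The spread in Dble::R6/2 thus shrank without the 3 mice, as leaving out the highest mice of a group makes likely. Ttr still varied widely among the other 6. In an exact permutation test of the absolute deviations from the group median, added after the values had been seen, the mean deviation of the brightest Ttr probe set was 1.75 in Dble::R6/2 and 0.545 in R6/2 (two-sided p = 0.0361, adjusted p = 0.144 over 4 comparisons). The other comparisons gave p = 0.164 for Dble::R6/2 against Hdac4HET, 0.478 for Hdac4HET against WT and 0.613 for R6/2 against WT in the same exact test. Without the 3 high mice the mean deviation in Dble::R6/2 was 1.37, and the exact permutation p was 0.0791 against R6/2 and 0.312 against Hdac4HET.

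**Figure D2:**
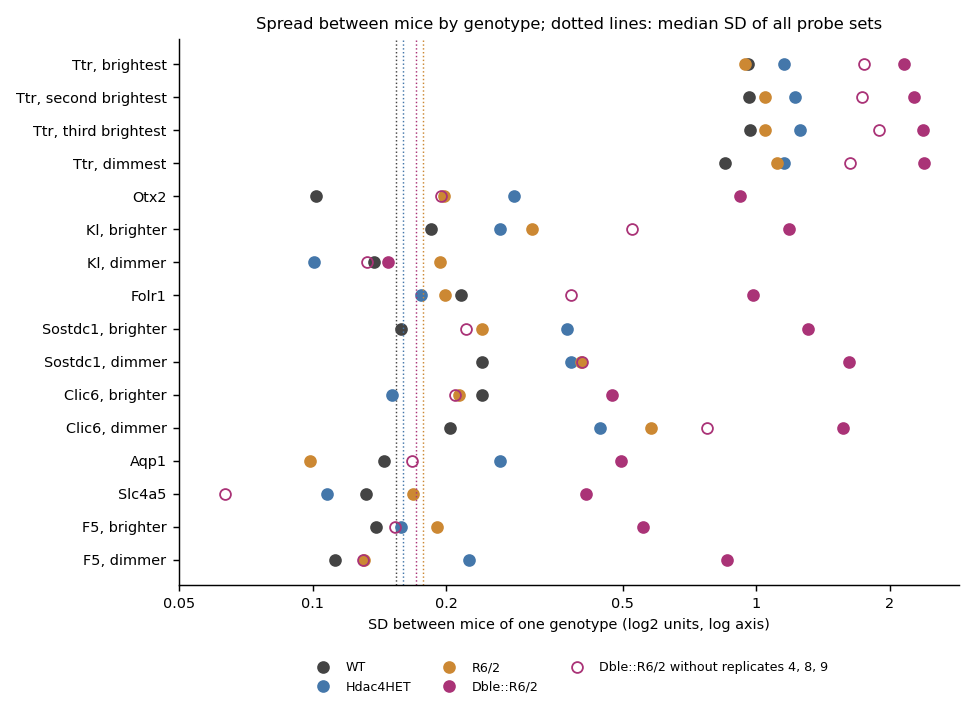
SD between mice of one genotype for each of the 16 probe sets, on a log axis in log2 units, with the median SD of all probe sets as dotted lines. Filled Dble::R6/2 points lie to the right of the other genotypes on 15 of 16 probe sets. Open points, without replicates 4, 8 and 9, lie nearer the other genotypes for most genes. They stay to the right for Ttr, Folr1, the brighter Kl and the dimmer Clic6, among others.

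The first comparison asked what the R6/2 transgene changed. In R6/2 against WT, 6 of the 16 probe sets were called at a limma adjusted p of 0.05 or less, all higher in R6/2, where 26.9% of all probe sets were called in either direction and 14.9% as higher. Sostdc1 rose on both probe sets, from 3.60 ± 0.24 to 4.54 ± 0.40 on the dimmer (SD, log2 change 0.94 ± 0.15 SE, 1.92-fold, limma adjusted p = 0.000107) and by 0.56 ± 0.10 on the brighter (limma adjusted p = 0.000243). On the brighter the groups did not overlap, which held for 7.22% of all probe sets. The brighter Kl probe set rose from 3.83 ± 0.19 to 4.27 ± 0.31 (0.45 ± 0.12, limma adjusted p = 0.00782). These 3 calls were kept in each of the 17 fits that left out 1 array.

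Ttr and Clic6 lay nearer to the threshold. The brightest Ttr probe set rose from 9.57 ± 0.96 to 10.7 ± 0.95 (1.14 ± 0.41, 2.20-fold, limma adjusted p = 0.0476), the third brightest rose by 1.24 ± 0.44 (adjusted p = 0.0416), and the second brightest and dimmest differed by 1.07 and 0.78 without a call (adjusted p = 0.0805 and 0.213). Each Ttr call was kept in 6 of 17 fits that left out 1 array. It was lost without any of WT replicates 2, 4, 5, 6 and 7 and R6/2 replicates 3, 4, 5, 6, 8 and 9, with adjusted p up to 0.101 and 0.0897 in limma. The dimmer Clic6 probe set rose by 0.59 ± 0.20 (limma adjusted p = 0.0312) and lost the call without WT replicates 1, 4, 6 or 7 or R6/2 replicate 9 (adjusted p up to 0.0635). With all probe sets of a gene averaged, limma called Sostdc1, Kl, Clic6 and F5 and not Ttr (1.06, adjusted p = 0.0605). With all 4 genotypes in a single fit, which then share an estimate of the spread, 0 of the 16 probe sets were called. When the arrays high in Prl were left out, limma called only the 2 Sostdc1 probe sets, and Ttr stood at 0.81 (limma adjusted p = 0.302), the dimmer Clic6 at 0.51 (adjusted p = 0.168) and Kl at 0.42 (adjusted p = 0.0564). The 3 WT arrays among them read 8.88, 9.24 and 8.94 for Ttr, within the range of the other WT mice, and the part of pituitary tissue in these results was not tested. R6/2 replicate 3, the highest of its genotype in Ttr, also held more of the striatal projection neuron transcripts than other R6/2 mice, with a list mean of 0.33 above that of WT against a median of -0.68 in R6/2, and the part of this in the Ttr values was not tested.

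The other members showed no call in R6/2 against WT. Otx2 differed by -0.02 (95% interval -0.18 to 0.14), Folr1 by -0.07 (-0.27 to 0.13), Aqp1 by 0.01 (-0.13 to 0.14) and Slc4a5 by 0.05 (-0.11 to 0.20). F5 differed by 0.20 (0.03 to 0.37, limma adjusted p = 0.0843) on its brighter and 0.14 (0.01 to 0.28, adjusted p = 0.107) on its dimmer probe set. The dimmer Kl probe set differed by -0.04 (-0.21 to 0.13) and the brighter Clic6 probe set by 0.17 (-0.05 to 0.39). Over the 16, the median change was 0.32. With the level of the brightest Ttr probe set as a covariate, an alternative added after the data had been seen, both Sostdc1 probe sets kept their call among the 12 probe sets of the other genes (0.70 ± 0.15, limma adjusted p = 0.00254, and 0.45 ± 0.11, limma adjusted p = 0.00609, SE), while Kl (0.20, adjusted p = 0.156) and Clic6 (0.23, adjusted p = 0.420) did not.

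**Figure D3:**
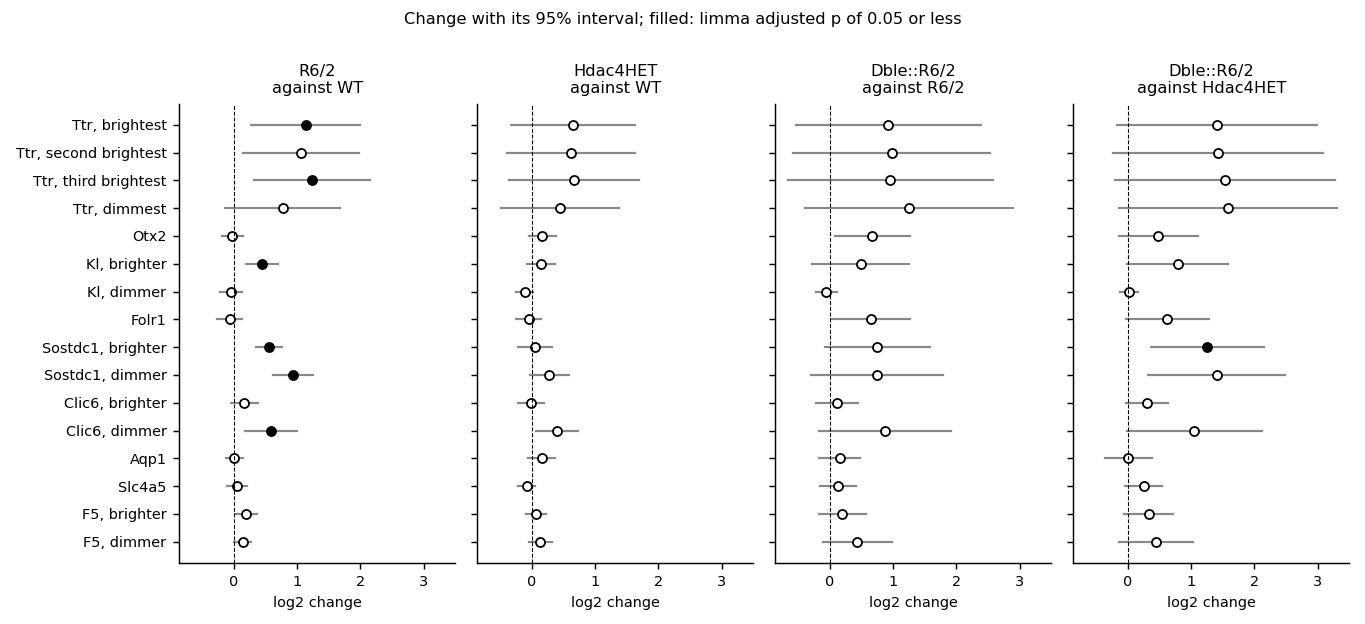
Log2 change of each of the 16 probe sets with its 95% interval in the 4 comparisons of genotypes, filled where the limma adjusted p was 0.05 or less. Filled points number 6 for R6/2 against WT, 0 for Hdac4HET against WT, 0 for Dble::R6/2 against R6/2 and 1 for Dble::R6/2 against Hdac4HET, and the Ttr intervals are the widest.

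The next comparison asked what the loss of 1 Hdac4 allele changed without the transgene. In Hdac4HET against WT, limma called 0 of the 16 probe sets, where 3.91% of all were called, and 1 had an unadjusted p under 0.05. That background was unstable: against 1760 probe sets called over the whole array, leaving out 1 array gave from 183 (without Hdac4HET replicate 6) to 3994 (without WT replicate 8), sex read from Xist as a covariate gave 22, the methods' test 173 and leaving out the 4 arrays high in Prl 5. The test named in the study's methods, with the same adjustment, also called 0. The largest change was that of Ttr, 0.66 on the third brightest probe set (95% interval -0.36 to 1.69), and the smallest unadjusted p was that of the dimmer Clic6 probe set at 0.40 (0.07 to 0.73, limma adjusted p = 0.140). The dimmer Sostdc1 probe set differed by 0.28 (-0.02 to 0.58), Otx2 by 0.17 (-0.04 to 0.38), Aqp1 by 0.16 (-0.06 to 0.37) and Folr1 by -0.05 (-0.24 to 0.15). The intervals of all 4 Ttr probe sets held both 0 and 1, so that with these mice a doubling could not be told from no change.

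The central comparison asked whether the Hdac4 allele altered these transcripts in R6/2 mice. In Dble::R6/2 against R6/2, limma called 0 of the 16 probe sets, where 0.00666% of all were called, although 15 of 16 differences were above 0, with a median of 0.66. An unadjusted p under 0.05 was found for 2 of the 16, beside 6.44% of all genes on their brightest probe sets. The 2 were Otx2, from 3.16 ± 0.20 to 3.83 ± 0.92 (SD, 0.67 ± 0.28 SE, limma adjusted p = 0.857), and Folr1, from 4.14 ± 0.20 to 4.79 ± 0.98 (0.64 ± 0.30 SE, limma adjusted p = 0.876). The test of the methods called 0 too. Ttr differed by 0.92 on the brightest probe set (95% interval -0.54 to 2.39). The brighter Sostdc1 probe set differed by 0.75 (-0.08 to 1.58), the brighter Kl by 0.49 (-0.28 to 1.25) and the dimmer Clic6 by 0.87 (-0.18 to 1.91). Without Dble::R6/2 replicates 4, 8 and 9, 14 of the 16 differences were below 0, between -0.28 and 0.08, with a median of -0.11 and 0 called. Ttr then stood at -0.17, Otx2 at 0.08 and Folr1 at 0.03. The positive differences were thus mostly absent without the 3 high mice, which were picked for high values of these same genes. No high R6/2 mouse was left out, so a fall in the differences was largely set in advance and tests nothing.

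For Dble::R6/2 against Hdac4HET, the transgene effect on the Hdac4HET background, limma called 1 of 16 probe sets, where 23.1% of all were called and 13.2% as higher. It was the brighter Sostdc1 probe set, which rose from 4.31 ± 0.37 to 5.57 ± 1.31 (SD, 1.25 ± 0.43 SE, limma adjusted p = 0.0378). All 16 differences were above 0, with a median of 0.71. Without the 3 high mice, Sostdc1 stood at 0.43 ± 0.15 (limma adjusted p = 0.0644), 0 of 16 were called, and 11 of 16 differences were above 0, with a median of 0.06. The call was also lost without Hdac4HET replicates 2, 4, 5, 6, 7 or 8 or Dble::R6/2 replicates 4 or 9 (adjusted p up to 0.0740). Ttr differed by 1.41 (95% interval -0.16 to 2.99) on its brightest probe set and by 0.32 without the 3 high mice.

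Whether the transgene effect differed between mice with and without the Hdac4 allele was tested as an interaction over all 4 genotypes. Limma called 0 of the 16 probe sets, where 0.00222% of all were called, and 0 had an unadjusted p under 0.05, beside 8.36% of all genes on their brightest probe sets. The interaction was 0.27 for Ttr (95% interval -1.57 to 2.12) and 0.70 for the brighter Sostdc1 probe set (-0.24 to 1.64). Folr1 stood at 0.69 (-0.01 to 1.39, limma adjusted p = 0.515) and Otx2 at 0.50 (-0.16 to 1.17). Without the 3 high mice, limma also called 0, and 14 of the 16 interactions were below 0, with Ttr at -0.82 ± 0.81 (SE, adjusted p = 0.804), the brighter Sostdc1 probe set at -0.13, Folr1 at 0.08 and Otx2 at -0.08. The sign of most of these values therefore changed with those mice, which leaving out only high Dble::R6/2 mice makes likely. No difference between the transgene effects was shown.

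Several members moved with Ttr from mouse to mouse within genotypes. Deviations from the genotype mean were compared with those of the brightest Ttr probe set, over the brightest probe set of each of the 8 other genes, with permutations within genotypes. Because the 3 high mice form a cluster of their own, the values leave them out (n = 31). Kl followed Ttr at r = 0.85 (permutation p = 1e-05, the smallest these permutations can give, adjusted p = 8e-05) and rho = 0.84 (adjusted p = 8e-05). Otx2 followed at r = 0.72 (permutation adjusted p = 0.00012) and rho = 0.66 (adjusted p = 0.00116). Sostdc1 (r = 0.52, rho = 0.45, permutation adjusted p = 0.00634 and 0.0324), Slc4a5 (r = 0.47, rho = 0.44, adjusted p = 0.00634 and 0.0249) and F5 (r = 0.44, rho = 0.43, adjusted p = 0.0290 and 0.0324) also passed. Folr1 (r = 0.41, rho = 0.28), Clic6 on its brighter probe set (r = 0.34, rho = 0.25) and Aqp1 (r = 0.22, rho = 0.21) did not (permutation adjusted p = 0.0844, 0.0844 and 0.270 for r, and 0.209, 0.209 and 0.281 for rho). Kl, Sostdc1 and F5 rest here on the brighter probe set alone. It correlated with the dimmer one at -0.08, 0.58 and 0.13 over these 31 arrays. Slc4a5 lay near the low end of the scale, with 7.05% of all probe sets dimmer.

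Leaving out the arrays then farthest from the median, Dble::R6/2 replicate 5 and R6/2 replicate 3, r was 0.79 for Kl, 0.64 for Otx2 and 0.43 for Slc4a5, which still passed the permutation test (adjusted p = 0.00056, 0.00272 and 0.0227, n = 29), and 0.39 for Sostdc1 and 0.38 for F5, which did not (adjusted p = 0.0788 each). By rho, only Kl (0.77) and Otx2 (0.61) passed there (permutation adjusted p = 0.00064 and 0.00768), and Slc4a5 (0.40), F5 (0.42) and Sostdc1 (0.32) did not (adjusted p = 0.064, 0.066 and 0.198). Within single genotypes, Kl followed Ttr at r = 0.74 in WT, 0.94 in Hdac4HET, 0.85 in R6/2 and 0.89 in Dble::R6/2. Exact permutation adjusted p over the 8 genes was 0.265 and 0.136 in WT (n = 8) and R6/2 (n = 9), and 0.00169 and 0.0145 in Hdac4HET (n = 8) and Dble::R6/2 (n = 9). The rho of Kl was 0.57, 0.93, 0.52 and 0.97 in the order WT, Hdac4HET, R6/2 and Dble::R6/2. Otx2 gave r of 0.42, 0.98, 0.76 and 0.81 and rho of 0.57, 0.90, 0.27 and 0.90 in that order. Among the 6 Dble::R6/2 mice other than the 3 high ones, r was 0.87 for Kl and 0.64 for Otx2 and rho 0.89 and 0.66, with exact permutation adjusted p of 0.222 and 0.368 for r and 0.267 and 0.35 for rho. In Hdac4HET mice the r of Folr1, Clic6 and Aqp1 was -0.18, -0.36 and -0.19 without passing the test, where it was above 0 in the other genotypes.

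**Figure D4:**
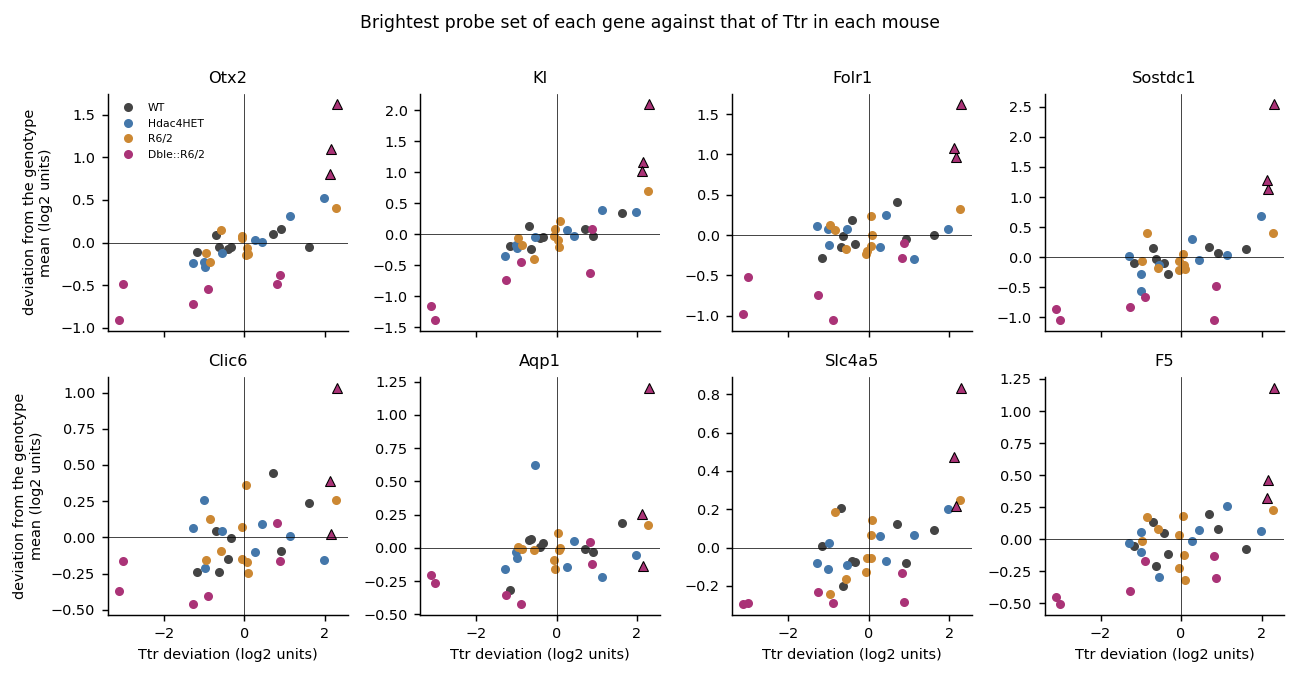
Deviation of each mouse from its genotype mean, in log2 units, for the brightest probe set of 8 genes (vertical axes, 1 scale per gene) against that of Ttr (horizontal axis), with Dble::R6/2 replicates 4, 8 and 9 as triangles. Kl and Otx2 rise with Ttr also among the 31 other mice (r = 0.85 and 0.72), while Aqp1 shows little relation there (0.22).

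Among 18184 other genes, the 8 whose brightest probe set followed Ttr most closely over the 34 deviations were Calml4, Kcnj13, Ecrg4, Rdh5, Car12, Lbp, Sulf1 and Bmp6, with r between 0.69 and 0.79. All 8 were in the list of other choroid plexus epithelium genes. Without the 3 high mice their r lay between 0.51 and 0.69. Calml4 and Kcnj13 were then still the closest and the next closest, and Ecrg4 ranked 5, Sulf1 7, Car12 19, Bmp6 23, Rdh5 31 and Lbp 47. That all 8 closest genes were in the list thus describes the ranking with the 3 high mice in it. Calml4, a calmodulin-like gene, read 5.74, 7.03 and 5.82 in Dble::R6/2 replicates 4, 8 and 9, at most 5.11 in the other 31 mice and 3.93 ± 0.26 in WT (SD, n = 8). Kcnj13, an inward rectifier potassium channel of the apical membrane, read 6.95, 7.52 and 6.70 there, at most 6.38 elsewhere and 5.43 ± 0.18 in WT. Ecrg4, a secreted peptide precursor, read 7.43, 8.41 and 7.38 there and at most 6.72 elsewhere. For Car12 and Sulf1, a carbonic anhydrase and a sulfatase, the highest of the 31 other arrays was WT replicate 3, the WT mouse with most Ttr, at 6.51 and 7.23.

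The list of other choroid plexus epithelium genes held 29 measured genes. All 3 high mice lay above the other 31 for 9 of them: Calml4, Kcnj13, Ecrg4, Kcne2, Lbp, Rdh5, Steap1, Wfdc2 and Ace. Kcne2, a potassium channel subunit, read 4.61, 4.56 and 5.07 against at most 3.65 elsewhere, and Steap1, a metalloreductase family member, read 4.85, 6.44 and 4.85 against at most 4.35. For Cldn2, Cldn3, Lmx1a, Slco1a5, Slc13a4, Slc29a4, Bmp6, Col8a1 and Car12 none of the same mice exceeded the highest of the rest. Bmp6 and Car12 were also among the 8 genes that followed Ttr most closely. For the remaining listed genes some but not all of the 3 mice did. As a mean over the list, relative to WT, Dble::R6/2 replicates 8, 9 and 4 read 0.93, 0.53 and 0.43 and ranked highest of the 34, followed by R6/2 replicate 3 at 0.30 and Dble::R6/2 replicate 2 at 0.26. WT arrays lay between -0.12 and 0.10. The list mean followed the members' mean from mouse to mouse at r = 0.79 and rho = 0.78 over the 31 other mice, given as a description of genes of one epithelium measured on the same arrays.

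In R6/2 against WT, 6 of these 29 genes rose and 3 fell, with a median change of 0.07 against 0.02 over all genes, of which 3674 rose and 2153 fell of 18193. Spint2, a protease inhibitor (0.63 ± 0.10 SE, limma adjusted p = 0.00014), and Kcnj13 (0.45, adjusted p = 0.00751) rose, while Car12 (-0.78, adjusted p = 0.0031) and Sulf1 (-0.70, adjusted p = 0.000135) fell. In Hdac4HET against WT, 1 of the 29 was called, Wfdc2 (0.28, limma adjusted p = 0.0273), where 1.46% of all genes were called as higher and 1.71% as lower. This count is near that share, and the number called in this comparison was unstable over the whole array. In Dble::R6/2 against R6/2, 0 were called by limma and 6 (20.7%) had an unadjusted p under 0.05, against 6.44% of all genes, with a median of 0.12, and of -0.08 without the 3 high mice. In Dble::R6/2 against Hdac4HET, 2 rose, Spint2 (0.52, limma adjusted p = 0.00494) and Col8a1 (0.35, adjusted p = 0.0456), with a median of 0.12 over the 29, where 3326 rose and 2134 fell of all 18193 genes. Without the 3 high mice, 1 of the 29 was higher and 3 lower, with a median of 0.004, against 2741 higher and 1820 lower of all genes. Spint2 kept its call (0.43, limma adjusted p = 0.0198), Col8a1 did not (0.22, adjusted p = 0.292), and Car12 (-1.01), Sulf1 (-0.66) and Rdh5 (-0.43) were the genes called as lower (limma adjusted p = 0.00265, 0.00425 and 0.00499).

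**Figure D5:**
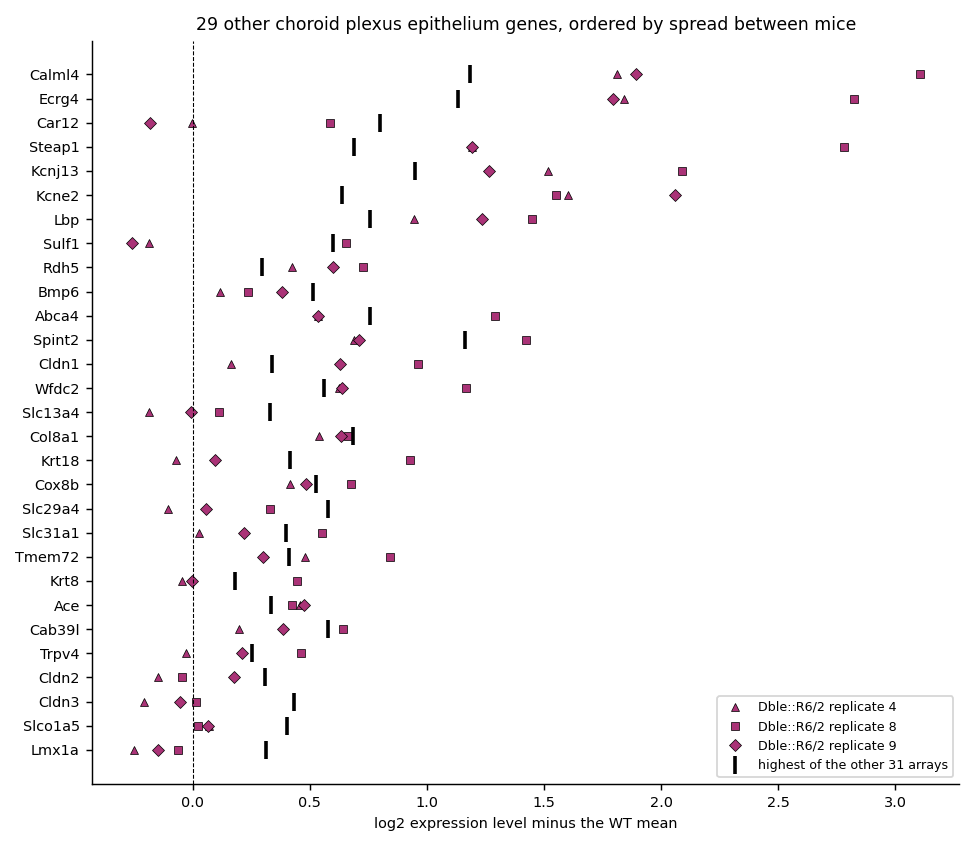
Log2 expression level minus the WT mean for 29 other choroid plexus epithelium genes in Dble::R6/2 replicates 4, 8 and 9, with the highest of the other 31 arrays as a tick. All 3 mice lie beyond the tick for 9 genes, among them Calml4, Ecrg4 and Kcne2.

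Genes that work with the members were taken from lists of ion and bicarbonate transport, of retinol and thyroid hormone handling, and of folate, klotho and lysophosphatidic acid partners. In R6/2 against WT, 4 of 12 transport genes rose and 6 fell, where 20.2% of all genes rose and 11.8% fell. Slc4a2, an anion exchanger (0.36 ± 0.09 SE, limma adjusted p = 0.00326), and the carbonic anhydrase Car14 (0.52, adjusted p = 0.00878) rose, and the carbonic anhydrase Car2 (-1.01, adjusted p = 3.66e-06) and the astrocytic water channel Aqp4 (-0.77, adjusted p = 7.64e-05) fell. Slc4a2, Car14, Car2 and Aqp4 changed in the same direction in Dble::R6/2 against Hdac4HET (0.48, 0.51, -0.80 and -0.58, limma adjusted p = 0.000905, 4.98e-05, 0.000217 and 0.00286), a comparison that shares no mice with the first. All 4 were also called without the 3 high mice (0.35, 0.46, -0.87 and -0.56, limma adjusted p = 0.0033, 0.00117, 0.000915 and 0.0137). In the mean over these genes Dble::R6/2 replicates 4, 8 and 9 read -0.13, -0.04 and -0.12, ranks 22, 13 and 20 of 34, and replicate 8 was the highest of its genotype. The list mean followed the members' mean at r = 0.43 and rho = 0.58 over 34 arrays, and at 0.32 and 0.39 over the 31 without the 3 high mice. Dble::R6/2 arrays lay between -0.30 and -0.04 of the WT mean and R6/2 arrays between -0.24 and -0.03.

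Of 18 genes of retinol and thyroid hormone handling, 3 rose and 6 fell in R6/2 against WT, where 20.2% of all genes rose and 11.8% fell. Dio2, the deiodinase that activates thyroid hormone, fell by 1.37 (limma adjusted p = 9.78e-07), the thyroid hormone transporter Slco1c1 fell by 0.72 (adjusted p = 4.19e-05) and Rbp4, the retinol carrier that transthyretin binds, fell by 0.69 (adjusted p = 7.93e-06), while Crym, a thyroid hormone binding protein, rose by 0.72 (adjusted p = 0.00145). In Dble::R6/2 against Hdac4HET, Dio2 (-1.28), Rbp4 (-0.76) and Slco1c1 (-0.66) fell likewise (limma adjusted p = 1.01e-07, 0.000177 and 4.9e-06), and without the 3 high mice they stood at -1.28, -0.76 and -0.70 (limma adjusted p = 4.93e-06, 0.0021 and 3.7e-05). Of 15 folate, klotho and lysophosphatidic acid partners, 2 rose and 2 fell in R6/2 against WT, beside the same shares of all genes. The folate transporters Slc46a1 (0.35, limma adjusted p = 0.0242) and Slc19a1 (0.18, adjusted p = 0.0406) rose, and the fibroblast growth factor receptors Fgfr3 (-0.52, adjusted p = 2.56e-07) and Fgfr2 (-0.36, adjusted p = 0.0023) fell. In Hdac4HET against WT and in Dble::R6/2 against R6/2, limma called 0 genes of these 3 lists. At an unadjusted p under 0.05, in the order of the lists, these were 3, 2 and 4 genes in the first comparison, where 3641 of all 18193 genes had such a p, and 2, 2 and 1 in the second, where 6.44% did.

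Markers of other cells and regions were set beside the choroid plexus transcripts array by array, as list means against the WT mean. For 15 ependymal genes, Dble::R6/2 replicates 4, 8 and 9 read 0.12, 0.32 and 0.26, ranks 12, 4 and 5 of 34, and the highest value, 0.46, was that of R6/2 replicate 1. For 18 meningeal and fibroblast genes they read -0.10, 0.34 and -0.002, ranks 29, 2 and 22. For 17 endothelial and mural genes they read -0.02, 0.26 and 0.01, ranks 28, 1 and 26. None of these lists placed all 3 mice on top. Over the 31 other mice the ependymal list followed the members' mean at r = 0.45 and rho = 0.52, and the list of striatal projection neuron genes at r = 0.50 and rho = 0.48, with r at 0.41 and 0.35 without the 2 farthest arrays. Pituitary markers were highest in WT replicate 6 (1.54), and the 3 Dble::R6/2 mice were not among the arrays high in Prl. Cortical projection neuron markers lay between -0.56 and -0.30 in Dble::R6/2 and between -0.48 and -0.27 in R6/2. In R6/2 against WT, limma called 3 of the 15 ependymal genes, all higher, among them the ciliary gene Enkur (0.92, adjusted p = 4.16e-07), and 5 of the 18 meningeal genes as higher and 2 as lower, among them the proteoglycan genes Fmod (1.11, adjusted p = 1.8e-06) and Lum (-0.86, adjusted p = 1.39e-05). Of 16 oligodendrocyte genes 8 fell and 0 rose, of 12 cortical projection neuron genes 8 fell and 1 rose, and of 17 endothelial and mural genes 6 rose and 0 fell, beside the 20.2% of all genes that rose and the 11.8% that fell. The part of the dissection in these values was not tested.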

How the data were processed

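Cortex RNA was put by the authors on 34 whole-genome mouse arrays of Affymetrix, each taken as 1 mouse. The deposited table holds log2 expression levels per probe set, normalized by the authors with a method not given in the sources used here, and chips of poor quality had been left out by them. Of 45037 probe sets, the platform annotation gave 34945 a single gene symbol, 932 several and 9160 none, and only single symbols were used, which gave 18193 genes. Groups were taken from the labels, and a replicate was taken as a separate mouse. Genotypes were compared in pairs on all probe sets by lmFit and eBayes of limma 3.58.1 (R 4.3.3), with Benjamini-Hochberg adjustment over all probe sets and a call where that p was at most 0.05, and the interaction in a single fit of the 4 genotypes. Correlations used deviations from genotype means and 100000 two-sided permutations within genotypes, or all orders within 1 genotype. Python 3.11.15 with numpy 2.4.6, pandas 2.3.3, scipy 1.17.1 and matplotlib 3.10.9 did the rest. Steps were tested on simulated data.

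Members and lists were chosen with earlier results of these data known. Text names were set by rule: all members with every probe set, up to 4 called genes of largest change per list and comparison, the 8 genes most like Ttr, and control genes. Kcne2, Steap1, the claudins and the listed genes high in all 3 mice or in none of them were named after their values were seen. The brightest probe set of a gene is that with the highest mean over all arrays. Alternatives were quantile normalization, a filter on dim probe sets, limma with trend and robust options, array weights, sex from the labels or from Xist, all 4 genotypes in 1 fit, a replicate block, the methods' plain test, gene means, and leaving out each array, the arrays high in Prl or the array with epidermal transcripts. Those without Dble::R6/2 replicates 4, 8 and 9, with Ttr as a covariate, and the test of deviations were added after seeing the data.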

Additional observations from a re-analysis of the deposited data

Results flagged for a closer look

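Each of the 16 probe sets was examined in each of the 4 genotypes for a mouse whose gap to the nearest other was large against the range of its group (Dixon's criterion), and 8 of these 64 groups held such a mouse, where chance gives about 1 in 20. These groups are not independent, since 4 of the 8 are the same mouse on the 4 Ttr probe sets, so the count cannot be set against that share. R6/2 replicate 3 was the highest of its genotype on all 4 Ttr probe sets, at 12.99 against 10.80 in the next mouse, 12.50 against 10.29, 12.23 against 9.79 and 11.63 against 9.31, from the brightest to the dimmest. The same mouse led R6/2 on the dimmer F5 probe set, at 3.48 against 3.26. For Aqp1, WT replicate 4 was low at 3.05 against 3.33 in the next mouse, Hdac4HET replicate 7 was high at 4.15 against 3.57, and Dble::R6/2 replicate 8 was high at 4.74 against 3.78.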

How the results depend on the processing

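In R6/2 against WT, 6 of 16 probe sets were called. The count was 2 of 5 among brighter probe sets only, 0 with all 4 genotypes in a single fit, 3 with the methods' plain test, 2 without the 4 arrays high in Prl and 2 of 12 with Ttr as a covariate, and it lay between 4 and 7 under the other settings, 7 with a replicate block and 4 with sex read from Xist. Leaving out 1 array at a time gave 3 to 8, with 3 without WT replicates 4, 6 or 7 or R6/2 replicate 9 and 8 without WT replicate 3. In Dble::R6/2 against Hdac4HET, 1 was called. The count was 0 among brighter probe sets only, 0 with trend and robust options, 2 with array weights, 4 with sex from the labels, 2 with sex read from Xist, 2 in the single fit, 0 with a replicate block, 0 with the methods' test, 0 without the 3 high arrays and 0 with Ttr as a covariate, and 0 to 2 with 1 array left out. In Hdac4HET against WT, Dble::R6/2 against R6/2 and the interaction, 0 were called under every setting run. Of the correlations of 8 genes with Ttr, 8 passed over all 34 arrays, 5 without the 3 high arrays, 3 without these and the 2 arrays then farthest, 0 in WT alone, 4 in Hdac4HET alone, 0 in R6/2 alone, 7 in Dble::R6/2 alone, and 0 there without the 3 high arrays. The median spread was 0.593, and 0.253 without the 3 high arrays. No call turned to the opposite direction, but calls of single probe sets were lost and gained. Under the alternative settings 24 results lost a call, 10 gained one and 819 stayed the same. With 1 array left out, 35 lost a call, 10 gained one and 1587 stayed the same. The cause of these changes was not tested. Same-numbered mice of different genotypes gave correlations of -0.35 to 0.386 over 32 pairs, 15 above 0.1. Correlations of differently numbered mice are not given beside them, so these values cannot tell whether the numbers pair mice. Members near the low end of the scale carry little signal over background, which limits what could be detected for Otx2, Aqp1, Slc4a5, F5 and the dimmer Kl probe set. Otx2 had a mean level of 3.39, with 17.2% of all probe sets dimmer.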

Other observations

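Of the 22 genes whose brightest probe set was higher in Dble::R6/2 replicates 4, 8 and 9 than in all 31 other mice, 6 were neither members nor in the list of other choroid plexus epithelium genes. Cltrn, which encodes collectrin, read 3.39, 3.64 and 3.49 in these mice against at most 3.10 elsewhere. Slc2a12, a glucose transporter gene, read 5.25, 5.34 and 5.18 against at most 5.06. Oca2, a melanosomal transporter gene, reached 5.16 in replicate 4 against at most 4.63. Col9a3, a collagen chain gene, read 6.91, 7.44 and 7.18 against at most 6.85. Elk1 and Prr32 exceeded the other mice by little, with 7.37, 7.37 and 7.44 against at most 7.36 and 4.74, 4.65 and 4.73 against at most 4.60. These genes were picked for these values, and no test was made.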
